A study of Mus musculus with 18 samples.

Results

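Integrins are the adhesion receptors with which leukocytes hold on to other cells and to matrix, and each is a pair of 1 alpha and 1 beta chain. The 10 genes described here encode the leukocyte integrin chains of the beta2, beta7, beta1 and beta8 families and their partner alpha chains: Itgal, Itgam, Itgax, Itgae, Itga4 and Itgav for the alpha chains, and Itgb2, Itgb7, Itgb1 and Itgb8 for the beta chains. They were chosen by name, as the rows whose Ensembl identifier maps to these symbols, and are 10 of the 54232 genes in the read count table. All 10 passed the filter on low counts, which left 17074 genes for testing.

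RNA was sequenced from dendritic cells (DCs) of C57BL/6J mice of the genotype CD11a KO, in which the alphaL chain encoded by Itgal is targeted. The 18 libraries form 6 groups of 3: CD11b+, CD103+ and double+ DCs, each isolated both from the lamina propria of the small intestine and from an intestinal lymph node. All 6 groups carry the knockout, and no wild-type library was analysed here, so no value below measures an effect of the knockout. The labels give neither the age and sex of the mice nor how the knockout was made, whether animals were pooled, or whether these mice were infected. For lamina propria DCs the stated gate was live, CD45+, CD64-, MHCII-high and CD11c+. The sort thus used the products of 3 genes in the list, CD11b (Itgam), CD103 (Itgae) and CD11c (Itgax), and the difference of Itgam or Itgae between subsets is a check of the sort and not a finding. The study's methods state that gate for DCs of C57BL/6 mice and name no CD11a knockout. They took the migratory DCs from thoracic duct lymph and not from a node, so the match to these samples is not stated.

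The beta2 chain pairs with alphaL, alphaM or alphaX (CD11a, CD11b and CD11c), and these receptors bind ICAM-family molecules and complement fragments. The beta7 chain pairs with alphaE (CD103), which binds E-cadherin on gut epithelium, or with alpha4, which binds MAdCAM-1 on gut vessels, while alpha4 can also pair with beta1 and bind VCAM-1 and fibronectin. AlphaV pairs with beta8 to bind the latent form of TGF-beta, a step through which DCs can make the active cytokine available to T cells.

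Itgam and Itgax lie next to each other on the same strand of chromosome 7, and both were lower in the lymph node, so the bases before their starts are shown. RefSeq (GRCm38.p6) windows were matched for 7 of the 10 genes by symbol, and those of Itgal, Itgae and Itgb2 were not matched. Each sequence gives the 250 bases before the RefSeq start on the strand of the gene, chr7:128062390-128062639 (+) for Itgam and chr7:128129300-128129549 (+) for Itgax, with capitals on any match, on either strand, to GAGGAA (a core of PU.1 sites), TGANTCA (AP-1), TGTGGT (RUNX) or CAGACA (SMAD).
Itgam: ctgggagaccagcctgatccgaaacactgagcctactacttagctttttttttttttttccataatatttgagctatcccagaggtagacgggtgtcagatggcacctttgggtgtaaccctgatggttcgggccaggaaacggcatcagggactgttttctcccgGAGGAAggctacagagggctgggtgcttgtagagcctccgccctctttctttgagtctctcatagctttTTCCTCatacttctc
Itgax: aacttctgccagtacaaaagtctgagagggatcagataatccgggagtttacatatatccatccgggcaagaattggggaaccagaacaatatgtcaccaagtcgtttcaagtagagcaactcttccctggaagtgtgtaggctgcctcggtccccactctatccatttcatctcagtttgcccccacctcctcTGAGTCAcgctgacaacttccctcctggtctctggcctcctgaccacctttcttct
The Itgam window held 2 matches to GAGGAA, which 23.3% of 32851 windows of this length held at least once. The Itgax window held 1 match to TGANTCA, found in 6.75% of the windows. None of the marked matches overlaps another. The RefSeq start of Itgax lies 3 bases inside the GENCODE gene given below, so the last 3 bases of its window belong to that gene. These matches describe letters in a window, and no binding was measured.

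Levels are given as CPM (the counts of a gene relative to the total of its library, scaled by the trimmed mean of M-values, TMM) and as mean ± SD over the 3 libraries of a group. Total counts were 23574292 to 46901985 per library. The sums of DC subset markers followed the labels more clearly in the lamina propria than in the lymph node. The summed level of 7 cDC1 markers was 8229 to 8719 CPM in CD103+ DCs of the lamina propria and at most 554 CPM in the other lamina propria groups. In the lymph node it was 2017 to 2083 CPM in CD103+ DCs and 714 to 1158 CPM in the other groups, but Irf8 alone gave a mean of 1614 CPM of the former, and Tlr3 (8.64 against 22.2 and 18.5 CPM in CD11b+ and double+ DCs) and Wdfy4 (32.2 against 125 and 39.4 CPM) had their lowest means in the CD103+ DCs. The summed level of 7 cDC2 markers was 2656 to 3896 CPM in CD11b+ and 3174 to 3807 CPM in double+ DCs of the lamina propria, 824 to 1269 CPM in CD11b+ and 203 to 251 CPM in double+ DCs of the lymph node, and at most 84.0 CPM in CD103+ DCs of either tissue. Double+ DCs of the lymph node had a cDC1 sum of 970 to 1158 CPM, most of it from Irf8 (mean of 689 CPM). Most of their cDC2 sum came from Sirpa, with a mean of 158 CPM against 14.9 CPM in CD103+ DCs of the lymph node. Sums over different genes cannot be compared in level, so these do not place the double+ DCs nearer to either list. Markers of other cells moved with tissue. The summed level of 11 T cell markers was 6.14 to 31.0 CPM in the lamina propria and 322 to 746 CPM in the lymph node, and that of 6 NK or ILC markers was 2.58 to 26.7 against 185 to 639 CPM. Most of the NK or ILC sum in the lymph node came from Il7r, with means of 253, 176 and 273 CPM in CD11b+, CD103+ and double+ DCs. Ncr1 had means of 88.6, 2.56 and 15.0 CPM there in the same order, and Klrb1c 53.7, 1.21 and 10.7 CPM. No gene of the T cell list was at 0 in all libraries of either tissue. The sex of the mice moved with tissue too. Y-linked Ddx3y was at 50.01 to 74.3 CPM in all 9 lamina propria libraries, whereas Xist was at 15.3 to 89.1 CPM in all 9 lymph node libraries. Replicate 3 of the CD11b+ and of the double+ lymph node DCs held both transcripts, with Ddx3y at 58.0 and 52.1 CPM. Tissue and sex cannot be told apart in this design. The part of the T cell, NK or ILC, macrophage and plasma cell transcripts in the tissue and subset differences below was not tested.

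The targeted gene, Itgal (ENSMUSG00000030830, GRCm38 chr7:127296260-127335138), encodes the alphaL chain. Its CPM was 20.4, 25.3 and 21.8 in CD11b+ DCs of the lamina propria, 25.0, 26.6 and 21.4 in CD103+ and 18.4, 17.6 and 20.3 in double+ DCs. The lymph node values were 21.0, 18.1 and 23 in CD11b+, 12.7, 6.45 and 6.83 in CD103+ and 15.4, 9.56 and 13.1 in double+ DCs. Reads of the gene were thus counted in every library of the knockout, at 153 to 1239 counts. A gene-level count does not show whether the transcript lacks exons, and without a wild-type library the level cannot be called reduced. CD103+ and double+ DCs of the lymph node held the lowest values, and the other 4 groups overlapped with their neighbours in the order of means. In CD103+ DCs Itgal was 2.81-fold lower in the lymph node (log2 fold change -1.49, SE 0.23, adjusted p = 2.3e-05 by edgeR's quasi-likelihood test). In CD11b+ DCs the log2 difference was -0.12 (SE 0.22, adjusted p = 0.70) and in double+ DCs -0.57 (SE 0.22, adjusted p = 0.037), neither of which passed the test.

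**Figure D1:**
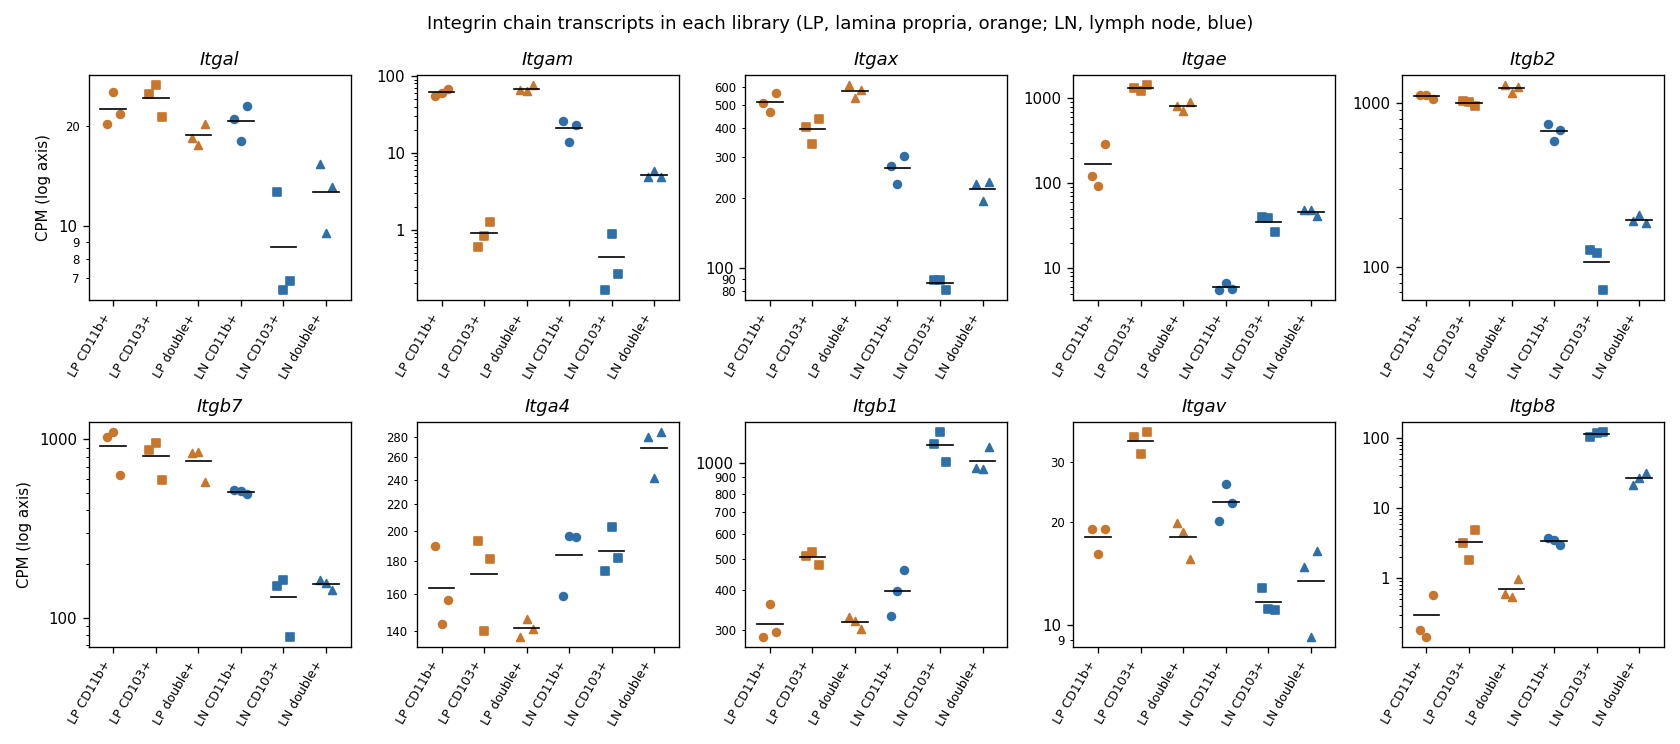
CPM of each of the 10 integrin chains in each library (log axes that do not start at 0), with lamina propria (LP) in orange and lymph node (LN) in blue. Points are libraries and bars are means of 3. Itgae, Itgb2 and Itgb7 sit higher in the lamina propria in every subset, and Itgb8 sits higher in the lymph node in every subset.

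A gene was called changed between tissues when its adjusted p was under 0.01 and its fold change over 2. By this rule 3 of the 10 chains were called in CD11b+ DCs beside 15.2% of all genes tested, 1 of them higher and 2 lower in the lymph node (10.3% and 4.93% of all genes). In CD103+ DCs 8 were called beside 35.0%, with 2 higher and 6 lower (19.8% and 15.1% of all genes). In double+ DCs 7 were called beside 32.1%, with 2 higher and 5 lower (18.6% and 13.6%). The median log2 fold change over the 10 chains was -0.42, -1.53 and -0.98 in the 3 subsets, and over all genes tested 0.03, 0.04 and 0.07. Itgae was lower and Itgb8 higher in the lymph node in all 3 subsets. Itgax, Itgb2 and Itgb7 were lower and Itgb1 higher in CD103+ and double+ DCs.

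Itgae (ENSMUSG00000005947, chr11:73090583-73147446), the alphaE chain, showed the widest drop. Its CPM was 1332, 1237 and 1439 in CD103+ DCs of the lamina propria and 40.0, 39.1 and 27.0 in those of the lymph node. In double+ DCs it was 826, 713 and 896 against 48.1, 49.0 and 41.1. In CD11b+ DCs, which the methods describe as CD103- in the lamina propria, it was 121, 92.0 and 292 against 5.57, 6.65 and 5.69. No library of one tissue overlapped the other in any subset. The fall was 37.8-fold in CD103+ DCs (log2 -5.24, SE 0.34, adjusted p = 9.6e-10), 17.6-fold in double+ DCs (log2 -4.14, SE 0.33, adjusted p = 1.2e-08) and 28.2-fold in CD11b+ DCs (log2 -4.82, SE 0.35, adjusted p = 2.5e-08). Across the 6 groups the ranges did not overlap, and the order set the CD103+ and double+ DCs of the lymph node, 27.0 to 49.0 CPM, below the CD11b+ DCs of the lamina propria, 92.0 to 292 CPM. The transcript level therefore ordered groups by CD103 within a tissue and not across tissues. In a bulk library fewer cells that express a gene and less RNA per cell cannot be told apart.

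One library stood apart for this gene. Replicate 3 of the CD11b+ lamina propria DCs had 292 CPM of Itgae against 121 and 92.0 in its group. The same library had the highest sum in its group of 9 macrophage markers (1388 CPM against 839 and 657) and of 8 epithelial markers (458 CPM against 193 and 211). Its sum of 5 monocyte or neutrophil markers was also the highest (88.6 CPM against 57.8 and 49.6). Its 7 cDC2 markers had the lowest sum in the group (2656 CPM against 3753 and 3896), while its 7 cDC1 markers summed to 478 CPM against 478 and 526. Most of the epithelial sum in this group came from Epcam (at most 307 CPM in a library), with Krt8 at most at 66.8 CPM. Whether these transcripts had a part in its Itgae level was not tested. Without it the fall of Itgae in CD11b+ DCs was -4.16 on the log2 scale (adjusted p = 3.7e-10), and the excess of double+ over CD11b+ DCs of the lamina propria rose from 2.27 to 2.93 (adjusted p = 1.2e-07).

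**Figure D2:**
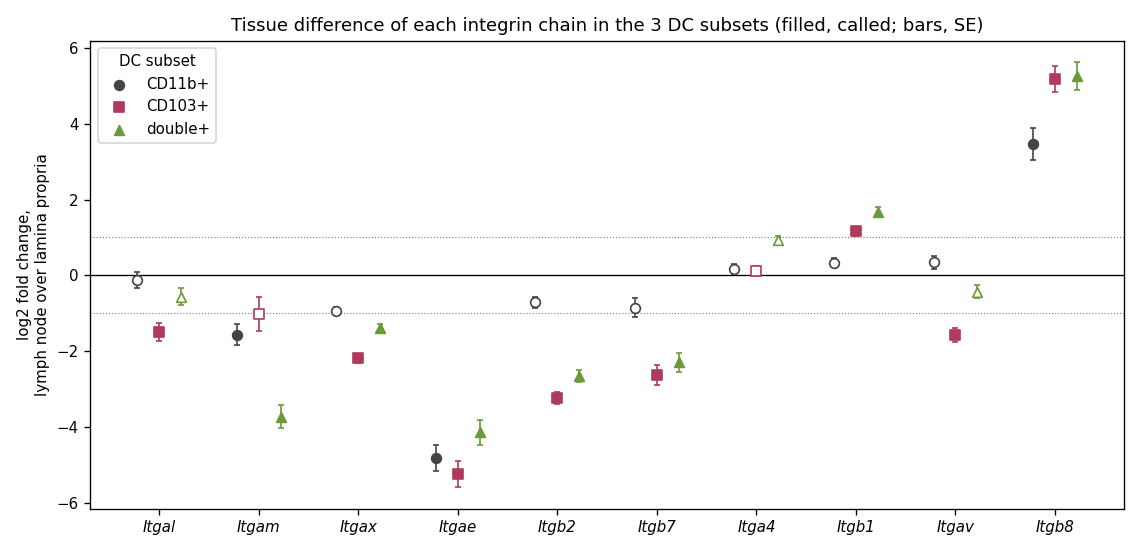
Log2 fold change, lymph node over lamina propria, of each chain in CD11b+, CD103+ and double+ DCs, with SE as bars. Filled points passed the adjusted p under 0.01 and the 2-fold limit (dotted lines), open points did not, and Itgae and Itgb8 lie beyond the limit in all 3 subsets.

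Itgb2 and its partners Itgax and Itgam were lower in the lymph node, but not equally in the 3 subsets. Itgb2 (ENSMUSG00000000290, chr10:77530252-77565708), the shared beta2 chain, had 1030, 1006 and 962 CPM in CD103+ DCs of the lamina propria and 126, 121 and 72.6 in the lymph node. In double+ DCs the values were 1285, 1150 and 1247 against 190, 207 and 186, and in CD11b+ DCs 1109, 1123 and 1054 against 743, 583 and 682. All lymph node libraries were thus below all lamina propria libraries. The fall was 9.37-fold in CD103+ DCs (log2 -3.23, SE 0.16, adjusted p = 3.3e-11) and 6.31-fold in double+ DCs (log2 -2.66, SE 0.16, adjusted p = 3.7e-10). In CD11b+ DCs it was 1.64-fold (log2 -0.71, SE 0.15, adjusted p = 0.0012), under the 2-fold limit. The tissue difference itself differed between the 3 subsets (F test of edgeR, adjusted p = 2.1e-07). By that F test 8 of the 10 chains, all but Itgae (adjusted p = 0.095) and Itgb8 (adjusted p = 0.043), had tissue differences that varied between subsets, beside 31.5% of all genes tested. The 8 include Itgam, on whose protein the subsets were sorted. Without replicate 3 of the CD11b+ lamina propria DCs the F test of Itgae passed (adjusted p = 0.0006).

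Itgax (ENSMUSG00000030789, chr7:128129547-128150657) encodes CD11c, for which all cells with a stated gate were positive. Its CPM was 403, 341 and 436 in CD103+ DCs of the lamina propria and 89.3, 89.2 and 81.0 in the lymph node, a 4.54-fold fall (log2 -2.18, SE 0.12, adjusted p = 1.1e-10). In double+ DCs it was 609, 538 and 578 against 229, 194 and 235, a 2.62-fold fall (log2 -1.39, SE 0.12, adjusted p = 2.5e-08). In CD11b+ DCs it was 512, 466 and 563 against 273, 229 and 302, and the log2 difference of -0.94 (SE 0.12, adjusted p = 7.7e-06) stopped just short of 2-fold. It passed 2-fold, at -1.002, without replicate 2 of the lamina propria group and, at -1.03, without replicate 3 of the lymph node group. CD103+ DCs of the lymph node were lower than every other group, and the neighbouring CD11b+ and double+ DCs of the lymph node overlapped.

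Itgam (ENSMUSG00000030786, chr7:128062640-128118491) encodes CD11b. In CD11b+ DCs its CPM was 55.3, 60.5 and 68.1 in the lamina propria and 25.7, 13.8 and 23 in the lymph node, and in double+ DCs 65.9, 63.2 and 76.3 against 4.88, 5.76 and 4.84. Both pairs of groups were apart, and the fall was 2.94-fold in CD11b+ DCs (log2 -1.56, SE 0.27, adjusted p = 0.00025) and 13.2-fold in double+ DCs (log2 -3.73, SE 0.30, adjusted p = 1.6e-08). CD103+ DCs held 0.601, 0.838 and 1.26 CPM in the lamina propria and 0.166, 0.885 and 0.263 in the lymph node. These libraries overlapped and the test was not passed (log2 -1.01, SE 0.45, adjusted p = 0.061), but without replicate 2 of the lymph node group the value was -2.06 (adjusted p = 0.0013). The counts behind this lowest group were as few as 4, so its fold changes are imprecise. Gm49368, a protein-coding gene on the same strand, shares 68.7% of the exon bases of Itgam, so reads from that stretch could be lost to both genes in the counting. Gm49368 itself had 2 to 25 counts.

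The sort was read from Itgam and Itgae together. The log2 ratio of Itgam to Itgae was -10.57 ± 0.47 in CD103+ and -1.28 ± 0.76 in CD11b+ DCs of the lamina propria (SD, n = 3), with the double+ DCs between them at -3.57 ± 0.08. In the lymph node it was -6.60 ± 1.17 in CD103+, 1.75 ± 0.62 in CD11b+ and -3.15 ± 0.12 in double+ DCs. Within each tissue the 3 groups did not overlap and followed the labels. The ratio compares libraries and not the level of one gene with that of the other, since it is not per length.

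**Figure D3:**
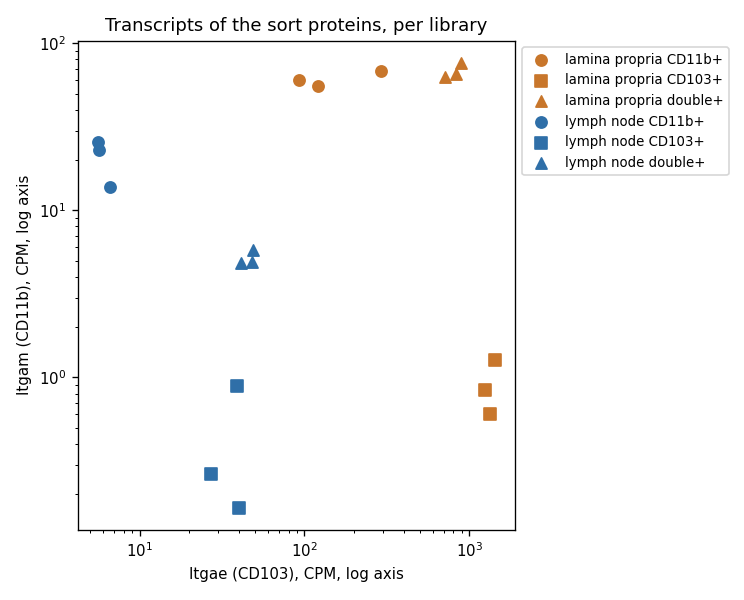
CPM of Itgae (CD103, horizontal log axis) against Itgam (CD11b, vertical log axis) in each of the 18 libraries, with lamina propria in orange and lymph node in blue. The 6 groups occupy separate areas, and the CD103+ and double+ DCs of the lymph node lie to the left of the CD11b+ DCs of the lamina propria on the Itgae axis.

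Between subsets of the lamina propria few chains beside the sort markers were called. Of CD103+ against CD11b+ DCs, 3 of 10 chains were called beside 15.7% of all genes, namely Itgae and Itgb8 higher and Itgam lower (5.07% and 10.6% of all genes in these directions). Of double+ against CD11b+ DCs, 1 was called, Itgae, which was higher, beside 4.81% (1.14% higher and 3.67% lower). That call was lost when only the 6 libraries compared were fitted (log2 2.25, adjusted p = 0.011 by edgeR). Of double+ against CD103+ DCs, 2 were called beside 13.6%, Itgam higher and Itgb8 lower (8.10% and 5.52% of all genes). Itgam was 68.8-fold lower in CD103+ than in CD11b+ DCs (log2 -6.10, SE 0.35), and Itgae 7.93-fold higher (log2 2.99, SE 0.31; 3.65 without replicate 3 of the CD11b+ DCs). The Itgam of double+ and CD11b+ DCs overlapped (log2 difference 0.16, SE 0.26, adjusted p = 0.78), and the Itgae of double+ DCs was 1.65-fold under that of CD103+ DCs without passing the test (log2 -0.72, SE 0.29, adjusted p = 0.064).

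More chains were called between subsets of the lymph node. Of CD103+ against CD11b+ DCs, 8 of 10 were called beside 25.9% of all genes, with 3 higher and 5 lower (10.2% and 15.6%). Of double+ against CD11b+ DCs, 6 were called beside 16.7%, with 3 higher and 3 lower (6.92% and 9.82%). Of double+ against CD103+ DCs, 3 were called beside 6.53%, with 2 higher and 1 lower (4.69% and 1.84%). These counts include the sort markers: Itgae and Itgam in both contrasts with CD11b+ DCs, and Itgam in double+ against CD103+ DCs. The other chains called were Itgb1 and Itgb8 (higher) and Itgb2 and Itgb7 (lower) in both contrasts with CD11b+ DCs. Itgal and Itgax were also lower in CD103+ DCs. In double+ against CD103+ DCs they were Itgax (higher) and Itgb8 (lower). Itgam was 47.0-fold lower in CD103+ than in CD11b+ DCs (log2 -5.55, SE 0.38; -6.60 without replicate 2 of the CD103+ DCs) and Itgae 5.92-fold higher (log2 2.57, SE 0.33). The tissue difference of Itgam varied between subsets (F test, adjusted p = 0.00026). The subsets were sorted on CD11b, and CD103+ DCs held at most 1.26 CPM of Itgam in either tissue, so this F test is not read as a finding. In the lymph node the Itgam of double+ DCs was 4.02-fold lower than that of CD11b+ DCs (log2 -2.01, SE 0.29, adjusted p = 2.5e-05) and 11.7-fold higher than that of CD103+ DCs (log2 3.55, SE 0.39; 4.58 without replicate 2 of the CD103+ DCs). Itgb2 was 6.28-fold lower in CD103+ and 3.44-fold lower in double+ than in CD11b+ DCs (log2 -2.65 and -1.78), and Itgb1 was 2.86-fold and 2.55-fold higher (log2 1.51 and 1.35).

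The beta7 chain Itgb7 (ENSMUSG00000001281, chr15:102215995-102231944) fell in CD103+ and double+ DCs. Its CPM in CD103+ DCs was 877, 960 and 590 in the lamina propria and 150, 163 and 78.6 in the lymph node, and in double+ DCs 842, 846 and 580 against 162, 158 and 143. The tissues did not overlap, and the fall was 6.18-fold (log2 -2.63, SE 0.27, adjusted p = 2e-07) and 4.90-fold (log2 -2.29, SE 0.26, adjusted p = 1e-06). In CD11b+ DCs it was 1027, 1102 and 630 against 519, 517 and 493, a log2 difference of -0.85 (SE 0.25, adjusted p = 0.013) that passed, at -1.06 (adjusted p = 0.0034), without replicate 3 of the lamina propria group. Replicate 3 had the lowest Itgb7 in 6 of 6 groups, and 194 of the 17074 genes tested (1.14%) had the same replicate lowest in all 6.

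The alpha4 chain Itga4 (ENSMUSG00000027009, chr2:79255426-79333123) varied least of the 10, with the highest group mean 1.90 times the lowest. In double+ DCs its CPM was 137, 146 and 141 in the lamina propria and 280, 242 and 285 in the lymph node, which did not overlap, and the difference (log2 0.92, SE 0.13, adjusted p = 8.4e-06) was just under the 2-fold limit. In CD11b+ DCs (log2 0.17, SE 0.13) and CD103+ DCs (log2 0.12, SE 0.13) the tissues overlapped. Antisense Cerkl covers 8.04% of the exon bases of Itga4 and had 34 to 170 counts, against at least 3690 for Itga4. The study's counting did not use strand, so reads from the shared bases cannot be told apart.

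Itgb1 (ENSMUSG00000025809, chr8:128685654-128733200), the beta1 chain that can pair with alpha4 and with many matrix-binding alpha chains, moved against beta2 and beta7. Its CPM was 512, 526 and 479 in CD103+ DCs of the lamina propria and 1144, 1250 and 1005 in the lymph node, and 329, 320 and 303 against 963, 955 and 1117 in double+ DCs. All of these lymph node libraries were above their counterparts, with a rise of 2.24-fold (log2 1.16, SE 0.12, adjusted p = 2.9e-07) and 3.19-fold (log2 1.67, SE 0.12, adjusted p = 5.1e-09). In CD11b+ DCs it was 286, 360 and 295 against 332, 397 and 461, which overlapped (log2 0.34, SE 0.12, adjusted p = 0.034). With total counts in place of TMM the rise in CD103+ DCs (log2 0.94) and the excess of lymph node double+ over CD11b+ DCs (log2 0.98) stopped short of 2-fold.

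The beta8 chain Itgb8 (ENSMUSG00000025321, chr12:119158022-119238802) rose most. In CD103+ DCs its CPM was 3.15, 1.83 and 4.85 in the lamina propria and 105, 120 and 124 in the lymph node. In double+ DCs it was 0.596, 0.542 and 0.963 against 21.5, 27.4 and 32.1, and in CD11b+ DCs 0.179, 0.146 and 0.568 against 3.77, 3.54 and 3.0. No library overlapped between tissues, and the rise was 36.2-fold in CD103+ DCs (log2 5.18, SE 0.34, adjusted p = 8.3e-10), 38.3-fold in double+ DCs (log2 5.26, SE 0.37, adjusted p = 2.9e-09) and 11-fold in CD11b+ DCs (log2 3.46, SE 0.42, adjusted p = 6.1e-06). Without replicate 3 of the CD11b+ lamina propria DCs, a group with as few as 4 counts in a library, the last value was 4.36 on the log2 scale. CD103+ DCs were highest in either tissue, 33.8-fold above CD11b+ DCs in the lymph node (log2 5.08, SE 0.33, adjusted p = 1.8e-09) and 10.3-fold above them in the lamina propria (log2 3.36, SE 0.42, adjusted p = 6.5e-06; 4.26 without that replicate).

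Its partner Itgav (ENSMUSG00000027087, chr2:83724397-83806916), the alphaV chain, was called in 1 subset, and as lower. Its CPM in CD103+ DCs was 35.7, 31.7 and 36.9 in the lamina propria and 12.8, 11.2 and 11.1 in the lymph node, a 2.97-fold fall without overlap (log2 -1.57, SE 0.18, adjusted p = 8.5e-07). In CD11b+ DCs the log2 difference was 0.34 (SE 0.17, adjusted p = 0.14) and in double+ DCs -0.43 (SE 0.18, adjusted p = 0.045). Per kilobase (kb) of exon, the scale on which genes can be compared, Itgav in CD103+ DCs stood at 3.23 ± 0.26 CPM per kb in the lamina propria beside 0.296 ± 0.137 for Itgb8, and at 1.09 ± 0.09 in the lymph node beside 10.5 ± 0.9 for Itgb8 (SD, n = 3). In these cells the order of the pair was thus opposite between tissues. In the lymph node double+ DCs Itgb8 (2.44 ± 0.48) also exceeded Itgav (1.25 ± 0.35), whereas in the CD11b+ DCs Itgav (2.14 ± 0.26) exceeded Itgb8 (0.311 ± 0.036). Antisense Gm13684, with 2 to 34 counts, covers 5.90% of the exon bases of Itgav.

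On the same scale Itgb2 had the highest median over the 9 lamina propria libraries, at 363 CPM per kb, ahead of Itgb7 at 306, Itgae at 180 and Itgax at 107. This order is that of the pooled libraries: in CD11b+ DCs Itgae (36.8 ± 23.6) was below Itgax (107 ± 10) and Itgb1 (76.9 ± 10.0), and in CD103+ DCs Itgae (292 ± 22) and Itgb7 (292 ± 70) overlapped (SD, n = 3). Over the 9 lymph node libraries Itgb1 was highest at 236 CPM per kb, ahead of Itgb2 at 62.3, Itgb7 at 58.5 and Itgax at 47.6. In the CD11b+ DCs of the lymph node, however, Itgb2 (219 ± 27) and Itgb7 (184 ± 5) exceeded Itgb1 (97.2 ± 15.8). Levels per kb use all annotated exon bases of a gene, some of which may not be transcribed in these cells.

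The balance of partner chains was read from the same levels. Itgal, Itgam and Itgax summed to 0.314 ± 0.048 of the Itgb2 level per kb in the lamina propria and 0.546 ± 0.230 in the lymph node (SD, n = 9). The ratio was higher in the lymph node in CD103+ DCs (0.262 ± 0.035 in the lamina propria, 0.583 ± 0.149 in the lymph node) and in double+ DCs (0.339 ± 0.001 and 0.767 ± 0.118), but not in CD11b+ DCs (0.342 ± 0.042 and 0.288 ± 0.026; SD, n = 3). Itgax gave 87.2% to 95.4% of this sum as group means, and 71.6% to 95.0% when Itgam was taken per unshared base as below. The sum leaves out Itgad, a further partner of beta2. Itgam gave 9.97% ± 0.78 and 10.0% ± 0.9 of them in the CD11b+ and double+ DCs of the lamina propria, and 26.1% ± 1.7 and 26.2% ± 1.9 when its counts were divided by the 1574 exon bases not shared with Gm49368.

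Between tissues the larger share of the beta7 partner transcripts passed from Itgae to Itga4. Itgae gave 72.4% ± 11, 96.0% ± 0.5 and 94.5% ± 0.7 of the beta7 partner transcripts per kb in CD11b+, CD103+ and double+ DCs of the lamina propria, and 9.06% ± 0.80, 36.5% ± 5.1 and 34.4% ± 3.8 in the lymph node (SD, n = 3). Itga4 made up the rest. Itga4 itself was called in no subset between tissues (log2 0.17, 0.12 and 0.92 in the same order of subsets), so the shares moved mainly with the fall of Itgae. All Itga4 is counted here, though alpha4 can also pair with beta1. The groups of one tissue did not overlap those of the other. Itga4 and Itgae summed to 1.10 ± 0.38 of the Itgb7 level in CD103+, 0.717 ± 0.233 in double+ and 0.171 ± 0.138 in CD11b+ DCs of the lamina propria, the last being 0.0921 without replicate 3. Those of the lymph node stood at 0.482 ± 0.159, 0.527 ± 0.038 and 0.0786 ± 0.0101 in the same order.

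**Figure D4:**
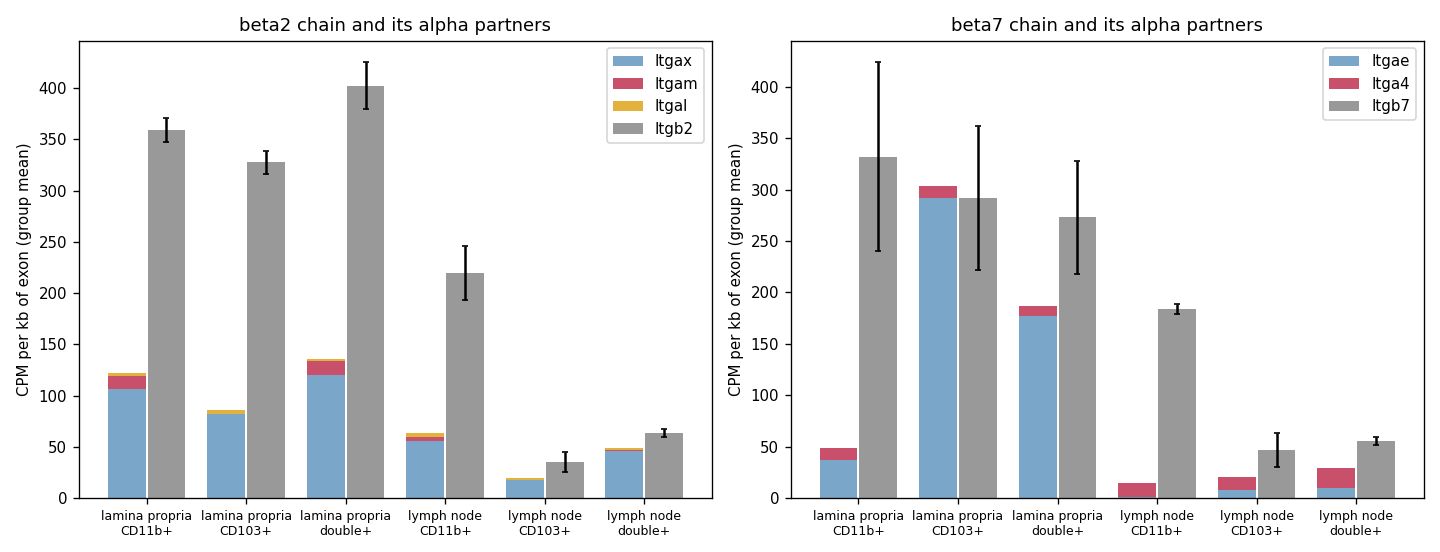
Mean CPM per kb of exon of the beta2 chain (left, grey) and the beta7 chain (right, grey) beside the stacked alpha chains (Itgal, Itgam and Itgax on the left, Itga4 and Itgae on the right) in the 6 groups. Error bars are SD of the beta chain over 3 libraries. Itgax makes up most of the left stack in every group, and the Itgae part of the right stack is large in the lamina propria and small in the lymph node.

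Other genes of the pathway were counted for the mean of the 3 tissue effects, in which 7 of the 10 chains were called beside 32.7% of all genes, with 2 higher and 5 lower (19.7% and 13.0%). Of 17 other integrin subunits 14 were tested, and 4 were higher and 4 lower in the lymph node, with a median log2 fold change of 0.53. By subset the median was -0.53 in CD11b+ DCs (2 higher, 2 lower), -0.66 in CD103+ DCs (3 higher, 5 lower) and 1.72 in double+ DCs (5 higher, 1 lower). The shares of all genes called higher and lower were 10.3% and 4.93%, 19.8% and 15.1%, and 18.6% and 13.6% in the same order. Itgad, another partner of beta2, fell from 20.8 to 7.34 CPM (log2 -1.70, SE 0.11, adjusted p = 7.9e-10), and Itgb5, a partner of alphaV, rose from 13.5 to 31.4 CPM (log2 2.07, SE 0.12, adjusted p = 1.2e-10).

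Of 32 integrin activation and adaptor genes 30 were tested, and 7 were higher and 3 lower, beside 19.7% and 13.0% of all genes. The median was 0.07 (-0.02, 0.52 and 0.10 in CD11b+, CD103+ and double+ DCs). Parvg, an actin-linking parvin of blood cells, fell from 256 to 104 CPM (log2 -1.77, SE 0.07, adjusted p = 1.6e-12). With the subsets of a tissue pooled, single libraries overlapped (210 to 323 and 30.4 to 246 CPM). Skap1, an adaptor of T cells, rose from 0.666 to 31.2 CPM (log2 5.55, SE 0.26, adjusted p = 8.2e-12), beside the rise of the T cell markers from at most 31.0 to at least 322 CPM. Cyth1, a cytohesin that binds the beta2 tail, rose from 39.2 to 127 CPM (log2 1.70) and the kinase Stk4 from 138 to 355 CPM (log2 1.26).

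Of 22 ligand genes 19 were tested, and 11 were higher and 6 lower, beside 19.7% and 13.0% of all genes. The median was 1.40 (0.10, 1.30 and 1.21 by subset in the same order). Vcam1, a ligand of alpha4beta1, rose from 4.17 to 112 CPM (log2 5.04, SE 0.22, adjusted p = 3.2e-12) and Mfge8, a ligand of alphaV integrins, from 31.7 to 163 CPM (log2 2.24, SE 0.12, adjusted p = 2.8e-11). Cdh1, which encodes the E-cadherin that CD103 binds, fell from 80.8 to 2.42 CPM (log2 -3.56, SE 0.22, adjusted p = 2.6e-10), and Fn1 from 25.7 to 1.02 CPM (log2 -2.38, SE 0.58, adjusted p = 0.0015). Single lamina propria libraries spanned 2.12 to 264 CPM of Cdh1 and 0.043 to 139 CPM of Fn1. Both ranges overlapped those of the lymph node (1.01 to 3.29 and 0 to 3.63 CPM). These ranges pool the subsets of a tissue, so they mix subset differences with the spread between libraries. These log2 values are means of the subset effects and need not match the ratio of the mean CPM. The summed epithelial markers were 64.5 to 575 CPM in the lamina propria and 25.9 to 68.2 CPM in the lymph node. Most of this sum came from Epcam, with means of 210, 47.4 and 452 CPM in CD11b+, CD103+ and double+ DCs of the lamina propria. Krt8 had 33.2, 4.79 and 9.52 CPM in the same order, so the sum alone does not measure epithelial RNA. The part of epithelial RNA in the level of Cdh1 was not tested.

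The genes whose profile over the 18 libraries came closest to a chain were found by the root mean square (RMS) of the log2 difference after each profile was centred. Closest to Itgax were Rps6ka1 (0.177), Pctp (0.218) and Vill (0.231), where the median over all genes tested was 1.12. Closest to Itgam were Cd300a (0.504), Fcgr3 (0.563) and Skint3 (0.580), with a median of 2.91. Itgae had no close match, since Pianp, the nearest, lay at 0.912, followed by Hepacam2 and 4930512J16Rik, both at 1.13 (median 2.79). Closest to Itgal were Nol9 (0.202), Cep41 (0.218) and Rgl2 (0.219), with a median of 0.881.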

How the data were processed

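Total RNA from sorted DCs was made into Smart-seq v4 libraries. Per the submitters' processing notes, FastQC (0.11.7) and STAR (2.6) were used with GRCm38, and the study's methods state uniquely mapped reads counted per gene without strand. The authors deposited these raw read counts, 54232 genes by 18 libraries, which are analysed here as deposited. Ensembl identifiers were matched to GENCODE symbols for 54165 genes. Samples were grouped by the subset and tissue in their labels. Genes with low counts were removed with filterByExpr, libraries were scaled by TMM, and 6 group means were fitted to all 18 libraries with edgeR (4.0.16, with limma 3.58.1 in R 4.3.3), using the quasi-likelihood test and Benjamini-Hochberg adjustment over 17074 genes. A call needed an adjusted p under 0.01 and a fold change over 2, as in the study's methods, except in the F test (adjusted p only). The script was tested on simulated data. Log2 ratios of Itgam to Itgae used a prior count of 0.5, and profile likeness a prior count of 2. DESeq2 (1.42.0) served as an alternative.

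The 10 chains, the gene lists and the tests were chosen with earlier results of these data known. By rule, all 10 chains were named, and from each list up to 4 genes called in the mean tissue effect with the largest fold change and at least 10 CPM in the higher tissue, as well as the 3 genes most like Itgal, Itgam, Itgax and Itgae. The labels do not say that replicates came from separate mice, so p-values measure the spread between these samples, which may be technical. Same-numbered replicates were checked for pairing by the correlation of their deviations from the group means over genes. Every pair was over 0.1 in the lamina propria for CD103+ with CD11b+ DCs (0.152 to 0.208) and with double+ DCs (0.125 to 0.189). Replicates of different numbers were not correlated and the labels state no pairing. These values therefore do not establish that the samples are paired. The correlation was 0.0750 to 0.250 for CD11b+ with double+ DCs of the lamina propria, 0.0152 to 0.129 in the lymph node and -0.101 to 0.0731 across tissues. In these comparisons not every pair was over 0.1. No replicates were duplicates of one another by a chi-square test of their counts. Figures were drawn with matplotlib (3.10.9) in Python (3.11.15).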

Additional observations from a re-analysis of the deposited data

Results flagged for a closer look

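For 8 of the 10 chains the tissue difference itself differed between the 3 subsets (edgeR F test, adjusted p under 0.01). The adjusted p was 2.1e-07 for Itgb2, 2.7e-05 for Itgb1, 3.6e-05 for Itgax and 3.6e-05 for Itgav, 0.00026 for Itgam, 0.0014 for Itgb7, 0.002 for Itga4 and 0.0056 for Itgal. For Itgax, Itgb2 and Itgb7 the log2 difference was smallest in CD11b+ DCs (-0.94, -0.71 and -0.85) and largest in CD103+ DCs (-2.18, -3.23 and -2.63). For Itgb1 it was 0.34, 1.16 and 1.67 in CD11b+, CD103+ and double+ DCs, and for Itga4 0.17, 0.12 and 0.92. For Itgam it was -1.56, -1.01 and -3.73, and for Itgav 0.34, -1.57 and -0.43. The subsets were sorted on the product of Itgam, which was near the floor in CD103+ DCs, so its F test is not read as a finding.

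The F test of Itgal was not passed on leaving out replicate 1 or 3 of the CD11b+ lamina propria DCs, replicate 1 or 2 of the CD103+ lamina propria DCs, replicate 3 of the CD11b+ lymph node DCs, or replicate 2 or 3 of the CD103+ lymph node DCs, with adjusted p between 0.011 and 0.018. It was also not passed without both lymph node libraries that hold Xist and Ddx3y (adjusted p = 0.021). The 3 groups of a tissue carry the same label of tissue and genotype, and the T cell, NK or ILC and sex-linked transcripts given in the report differ between the tissues. B cell, macrophage and plasma cell transcripts also differ between the subsets. The part of all these transcripts in the differences above was not tested.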

How the results depend on the processing

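Among single fold changes and F tests of the 10 chains, and leaving out 1 library aside, 1018 values under the alternatives kept their direction and side of the threshold, 8 passed it anew, 6 lost it and 8 changed sign, none of the last being called. The changes of sign were, on the log2 scale, Itgal in CD11b+ DCs between tissues (0.012 with total counts), Itga4 in CD103+ DCs between tissues (-0.11 with total counts) and in lamina propria CD103+ against CD11b+ DCs (-0.0033 with total counts), Itga4 in lymph node CD103+ against CD11b+ DCs (-0.41 with total counts, -0.022 with no filter), and in lamina propria double+ against CD11b+ DCs Itgb1 (-0.043 with total counts, -0.0030 with only the 6 libraries compared) and Itgav (0.0020 with the replicate block). Total counts moved the median gene by 0.14, -0.21 and -0.17 in CD11b+, CD103+ and double+ DCs between tissues, and by -0.43 and -0.37 in lymph node CD103+ and double+ against CD11b+ DCs. With them Itgb1 fell under 2-fold in CD103+ DCs between tissues (0.94), in the mean tissue effect (0.97) and in lymph node double+ against CD11b+ DCs (0.98), and it also did so in the mean tissue effect without the pair of libraries that hold Xist and Ddx3y (0.99) or replicate 3 of the CD11b+ lymph node DCs alone (0.98). The F test of Itgb8 passed with DESeq2 (adjusted p = 0.002). The double+ against CD11b+ contrast of the lamina propria called 821 genes, but 1289 at an adjusted p under 0.05 and 506 with only the 6 libraries compared, where 0 of the 10 chains were called (Itgae 2.25, adjusted p = 0.011). The mean tissue effect called 5590 genes, and 3651 with a filter of 100 counts. The alpha to beta2 ratio of the lamina propria was 0.365 with unshared bases of Itgam.

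Leaving out 1 library at a time changed the sign of values near 0: lamina propria double+ against CD11b+ DCs gave -0.047 to 0.13 for Itgb1 and -0.083 to 0.092 for Itgav, and CD103+ against CD11b+ DCs -0.027 to 0.20 for Itga4 and -0.40 to 0.0029 for Itgb7. Double+ against CD103+ DCs gave -0.29 to 0.063 for Itgb7 in the lamina propria and -0.019 to 0.44 in the lymph node, and Itga4 ranged from -0.030 to 0.21 in CD103+ DCs between tissues and from -0.12 to 0.045 in lymph node CD103+ against CD11b+ DCs. Itgav passed 2-fold without replicate 2 of the CD103+ lamina propria DCs (1.00 against CD11b+ DCs and -1.01 for double+ against them), without replicate 1 of the double+ DCs (-1.01), and in lymph node CD103+ against CD11b+ DCs without CD11b+ replicate 1 (-1.10) or 3 (-1.02) or CD103+ replicate 1 (-1.07). Itgb2 in lymph node double+ against CD103+ DCs reached 1.01 without CD103+ replicate 1.

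A replicate block within tissue let the F test of Itgb8 pass (adjusted p = 0.0045) and changed no other call of the 10 chains. The cause of these changes was not tested. Counts under 10 in a library limit Itgam in CD103+ lymph node DCs and Itgb8 in CD11b+ lamina propria DCs.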
